A study of Mus musculus with 24 samples.

Results

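RNA-Seq counts of the RIG-I-like RNA sensor genes were taken from 4 tissues of mice that lack the DNA exonuclease Trex1, with and without the STING antagonist SN-011. The members are the 5 genes whose Ensembl identifiers carry the symbols Ddx58 (RIG-I), Ifih1 (MDA5), Dhx58 (LGP2), Mavs and Ddx60 in GENCODE release M21, out of 54532 genes in the files. All 24 samples come from Trex1-KO mice, so no animal with a working Trex1 gene enters any comparison. Heart, stomach, muscle and tongue were each sampled in a control group and an SN-011 group, 3 samples to a group and 8 groups in all. The labels state 5 mg/kg SN-011 given 3 times a week over 4 weeks to the treated groups and call the control groups untreated. The study's methods describe young mice on a C57BL/6J background and another schedule, with a higher dose injected daily into the peritoneum over a shorter period and the Tween 80 and PBS vehicle for controls, so dose and duration are uncertain here. The knockout is of the whole animal, and the labels do not say which mouse gave which sample or that samples of a group came from separate mice. The p-values below therefore measure the spread between these samples.

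RIG-I and MDA5 are cytosolic helicases that bind double-stranded RNA, RIG-I preferring short ends that carry a triphosphate and MDA5 long duplexes. Both pass the signal to MAVS, an adaptor anchored in the outer mitochondrial membrane, from which the kinase TBK1 and the transcription factors IRF3 and IRF7 switch on type I interferon genes. LGP2 binds RNA but lacks the signalling domains of its relatives and tunes MDA5, and DDX60 is a helicase described as a cofactor of RIG-I. The genes of the sensors are themselves induced by interferon, whereas STING, the protein that SN-011 binds, belongs to the separate pathway that senses cytosolic DNA.

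In the GRCm38 annotation, Ddx58 (ENSMUSG00000040296) lies at chr4:40203773-40239828 on the minus strand, Ifih1 (ENSMUSG00000026896) at chr2:62595798-62646255 on the minus strand and Dhx58 (ENSMUSG00000017830) at chr11:100694884-100704271 on the minus strand. Mavs (ENSMUSG00000037523) lies at chr2:131234063-131248025 and Ddx60 (ENSMUSG00000037921) at chr8:61928087-62038244, both on the plus strand. Counts cover the exons of each gene. The only annotated exon overlap with another gene was 141 bp between Dhx58 and the antisense transcript Dhx58os, which had 391 counts in all 24 samples together, and Dhx58 had 64 to 2093 in each sample.

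Promoter sequence was examined because 4 of the 5 genes are known targets of interferon. RefSeq promoter windows of GRCm38.p6, holding 250 bases before and 50 bases after the transcript start, were at hand for 4 of 5 members, all but Dhx58. They were searched on both strands for the core of the interferon-stimulated response element (ISRE), GAAA and GAAA separated by any 2 bases, and for the gamma-activated site (GAS), TTC and GAA separated by any 3 bases. The ISRE core occurred in 3.44% of all 32851 windows and the GAS in 8.30%. Ddx60 held 2 ISRE cores before its start, at bases -53 to -44 and -19 to -10, a number or more that 0.1796% of all windows reached in the same 250 bases. The 250 bases before the starts of Ddx60 (chr8:61927837-61928086, plus strand) and Mavs (chr2:131233813-131234062, plus strand) are shown because they differ in this element, with ISRE cores in capitals.
Ddx60: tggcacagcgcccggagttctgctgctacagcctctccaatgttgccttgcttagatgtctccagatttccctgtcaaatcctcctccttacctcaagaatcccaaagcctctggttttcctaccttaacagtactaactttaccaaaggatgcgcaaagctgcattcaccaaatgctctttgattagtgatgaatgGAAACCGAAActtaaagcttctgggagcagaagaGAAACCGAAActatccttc
Mavs: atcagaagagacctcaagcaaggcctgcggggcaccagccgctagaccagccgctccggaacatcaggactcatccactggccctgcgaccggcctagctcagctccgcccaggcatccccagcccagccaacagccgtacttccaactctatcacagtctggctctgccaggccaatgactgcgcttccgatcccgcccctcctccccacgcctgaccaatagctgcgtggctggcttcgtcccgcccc
The single cores of Ddx58 (chr4:40239804-40239833, minus strand) and Ifih1 (chr2:62646206-62646233, minus strand) lay just after their starts, at bases 3 to 12 on the opposite strand and 33 to 42 on the gene's strand, and are printed 5′ to 3′ on the gene's strand with up to 10 flanking bases.
Ddx58: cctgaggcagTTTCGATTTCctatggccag
Ifih1: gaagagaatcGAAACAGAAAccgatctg
No ISRE core lay in the Mavs window and no GAS in any of the 4 windows, which says only that these letters are not in these windows.

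**Figure D1:**
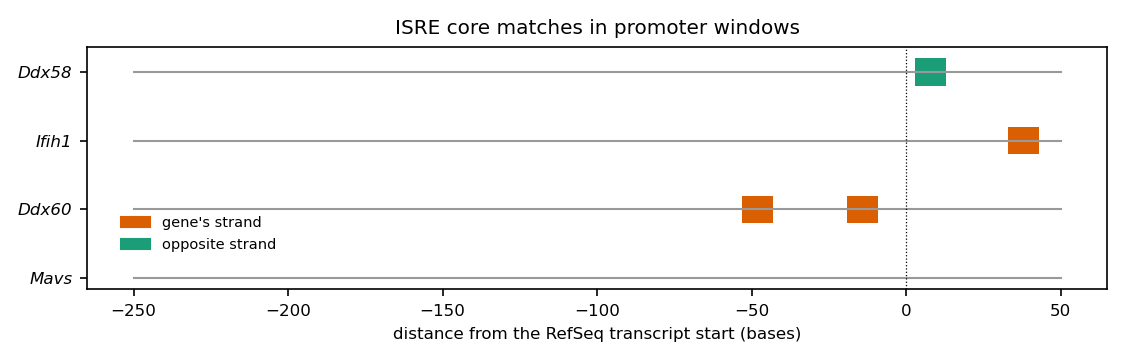
Positions of ISRE core matches in the RefSeq promoter windows of 4 genes. The horizontal axis is the distance in bases from the transcript start (dotted line), grey lines are the 300 bases searched, and boxes mark matches on the gene's strand or the opposite strand. Ddx60 holds 2 matches before the start, Ddx58 and Ifih1 hold 1 each after it, and Mavs holds none.

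The 24 libraries held 14253416 to 18443329 counts, so that 3 counts, taken as the smallest amount that can be shown, correspond to 0.163 to 0.210 CPM, the counts scaled to a common library size. Trex1 had 0 counts in all 24 libraries, as its labels require. The defining genes of each labelled tissue were present, with summed levels of 32557 to 54360 CPM for 8 heart markers in heart, 8921 to 107448 CPM for 10 stomach markers in stomach, 132927 to 188626 CPM for 8 skeletal muscle markers in muscle and 13764 to 63230 CPM for 10 epithelial markers in tongue. The library of muscle SN-011 sample 2 stood apart, with counts in 11546 genes against 19798 to 24264 in the others. Control sample 1 of each tissue had 3060 to 13811 counts of Xist, expressed from the inactive X chromosome, and at most 3 of the Y-linked Ddx3y, while the other 20 samples had at most 20 of Xist and at least 825 of Ddx3y. In heart, muscle and tongue, control samples 2 and 3 also held more stomach-marker RNA than any SN-011 sample, which is given with each tissue below.

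Ddx58, Ifih1, Dhx58 and Ddx60 were lower after SN-011 in all 4 tissues in mean, with the SN-011 samples below every control sample in 15 of 16 comparisons, and none of the 5 genes reached an adjusted p of 0.05 in any tissue (quasi-likelihood test of edgeR, adjusted by Benjamini-Hochberg over all tested genes). Mavs had log2 fold changes of 0.34 in heart, -0.40 in stomach, 0.48 in muscle and -0.07 in tongue. Unadjusted p-values were under 0.05 and in the lower direction for all 4 in heart, for all 4 in stomach, for 3 in muscle and for all 4 in tongue. In bulk tissue, fewer cells that hold an RNA and less of that RNA per cell cannot be told apart. The share of all tested genes that passed the adjusted threshold was 0.848% in heart, 0% in stomach, 0.0141% in muscle and 0% in tongue, so few genes of any kind passed in this design. The share of all tested genes with every SN-011 sample below every control sample was 13.1% in heart, 15.2% in stomach, 19.8% in muscle and 8.38% in tongue. The share with an unadjusted p under 0.05 and a lower level was 11.6% in heart, 11.4% in stomach, 5.8% in muscle and 7.33% in tongue. DESeq2 on the same counts called 4 of the 5 members in heart, 4 in stomach, 3 in muscle and 3 in tongue, and edgeR's exact test called 4, 4, 0 and 2. Of the 3 muscle calls by DESeq2, 2 were sensors called lower and 1 was Mavs called higher. Both tests called far more genes of any kind than the quasi-likelihood test, with DESeq2 calling 8.43% of all tested genes in heart, 14% in stomach, 6.2% in muscle and 2.52% in tongue and the exact test 5.68%, 10.8%, 3.37% and 1.53%.

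**Figure D2:**
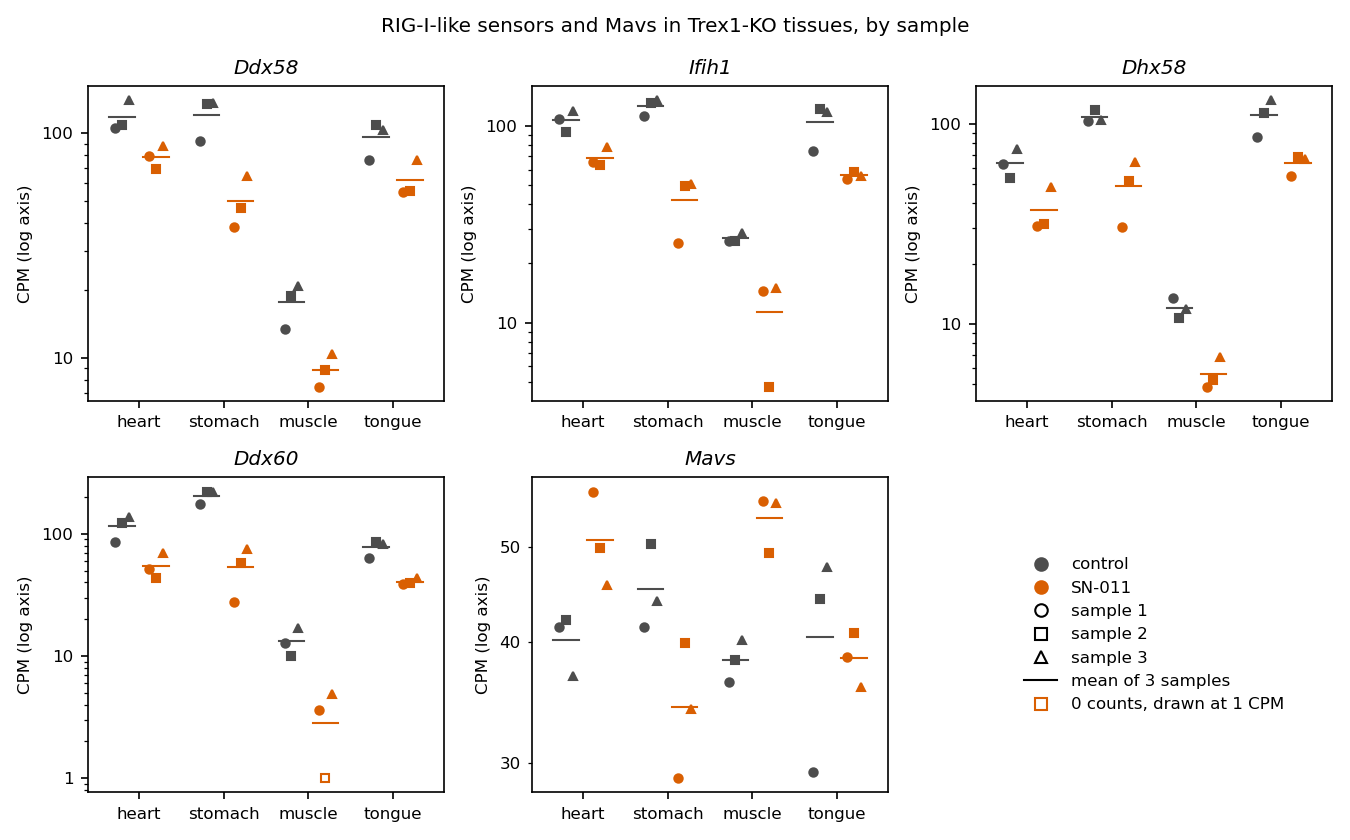
Level of each gene in every sample. The vertical axes are CPM on a log scale with TMM normalization within a tissue, grey marks are control samples, orange marks are SN-011 samples, marker shapes give the sample number and short lines the means of 3 samples. SN-011 samples lie below the control samples for the 4 sensor genes, apart from an overlap of Ddx58 in tongue, and for Mavs lie above them in heart and muscle and below them in stomach.

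Ddx58, which encodes RIG-I, was lowest against control in stomach and muscle. In heart it measured 106, 109 and 141 CPM in control samples 1 to 3 and 79.1, 69.7 and 87.9 CPM in SN-011 samples 1 to 3. In stomach the values were 92.2, 136 and 136 CPM in the controls and 38.5, 46.4 and 64.7 CPM with SN-011. The groups did not overlap in either tissue. In muscle the values were 13.5, 18.96 and 20.98 CPM in the controls and 7.46, 8.81 and 10.4 CPM with SN-011. In tongue they were 76.01, 109 and 103 CPM in the controls and 55.2, 55.7 and 76.22 CPM with SN-011. Only in tongue did the groups touch, since SN-011 sample 3 lay just above control sample 1. The log2 fold change of SN-011 against control was -0.58 in heart (SE 0.15, edgeR adjusted p = 0.0864, range over the alternative analyses 0.00280 to 0.624) and -1.28 in stomach (SE 0.29, adjusted p = 0.0747, range 0.00145 to 0.263). It was -1.003 in muscle (SE 0.25, adjusted p = 0.186, range 0.0130 to 1.00) and -0.62 in tongue (SE 0.19, adjusted p = 0.326, range 0.0240 to 0.714). These correspond to levels 1.499, 2.43, 2.004 and 1.54 times lower than control, in that order.

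Ifih1, which encodes MDA5, was 3.00 times lower in stomach and between 1.55 and 2.35 times lower in the other tissues. Heart controls measured 109, 93.2 and 119 CPM and heart SN-011 samples 65.5, 63.2 and 78.1 CPM. Stomach controls measured 112, 130 and 135 CPM and stomach SN-011 samples 25.4, 49.5 and 50.7 CPM. In both tissues each SN-011 sample lay below each control. Muscle controls measured 26.1, 25.9 and 28.6 CPM and muscle SN-011 samples 14.4, 4.73 and 14.97 CPM. Tongue controls measured 74.3, 121 and 118 CPM and tongue SN-011 samples 54.0, 58.2 and 55.9 CPM. The groups were again separate, and the lowest muscle value belonged to the library with few detected genes. The log2 fold change was -0.63 in heart (SE 0.13, edgeR adjusted p = 0.0622, range over the alternatives 0.000856 to 0.815), -1.59 in stomach (SE 0.31, adjusted p = 0.0672, range 0.000190 to 0.257), -1.24 in muscle (SE 0.42, adjusted p = 0.269, range 0.0198 to 1.00) and -0.90 in tongue (SE 0.20, adjusted p = 0.263, range 0.00201 to 0.714).

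Dhx58, which encodes LGP2, the member without signalling domains, was 1.72 to 2.22 times lower in the 4 tissues. Heart controls measured 62.7, 53.5 and 74.7 CPM and heart SN-011 samples 30.8, 31.7 and 48.4 CPM. Stomach controls measured 103, 117 and 104 CPM and stomach SN-011 samples 30.6, 51.4 and 64.1 CPM. Neither pair of groups overlapped. Muscle controls measured 13.4, 10.7 and 11.9 CPM and muscle SN-011 samples 4.87, 5.22 and 6.86 CPM. Tongue controls measured 86.0, 114 and 131 CPM and tongue SN-011 samples 54.8, 68.3 and 66.9 CPM. No overlap occurred there either. The log2 fold change was -0.78 in heart (SE 0.20, edgeR adjusted p = 0.0864, range over the alternatives 0.000110 to 0.464), -1.15 in stomach (SE 0.30, adjusted p = 0.0885, range 0.00411 to 0.282), -1.09 in muscle (SE 0.26, adjusted p = 0.177, range 0.00327 to 1.00) and -0.80 in tongue (SE 0.18, adjusted p = 0.268, range 0.00663 to 0.714).

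Ddx60, the helicase described as a cofactor of RIG-I, had the lowest estimated log2 fold change of the 5 genes in each of the 4 tissues, an order that was not tested. Ifih1 was lower than Ddx60 in tongue without control sample 1 or SN-011 sample 2, and Dhx58 and Ifih1 were lower than Ddx60 in heart with control samples 2 and 3 left out. Stomach controls measured 174, 221 and 219.9 CPM and stomach SN-011 samples 27.5, 57.7 and 75.6 CPM. Heart controls measured 84.9, 123 and 137 CPM and heart SN-011 samples 51.7, 43.2 and 69.6 CPM. All SN-011 samples lay below all controls in both. Tongue controls measured 63.2, 86.4 and 82.5 CPM and tongue SN-011 samples 38.9, 39.7 and 43.1 CPM. Muscle controls measured 12.8, 9.90 and 16.8 CPM and muscle SN-011 samples 1 and 3 measured 3.63 and 4.88 CPM. Muscle SN-011 sample 2 had 0 counts of Ddx60. That library had counts in only 11546 genes, so the 3-count floor does not bound its Ddx60 level. The log2 fold change was -1.93 in stomach (SE 0.38, edgeR adjusted p = 0.0674, range over the alternatives 0.000103 to 0.241), -1.07 in heart (SE 0.22, adjusted p = 0.0565, range 1.32e-07 to 0.810) and -0.93 in tongue (SE 0.15, adjusted p = 0.263, range 0.000360 to 0.816). In muscle it was -2.20 with a wide error (SE 1.14, adjusted p = 0.439, range 0.0303 to 1.00), and without the library at 0 it was -1.63 (adjusted p = 0.0303 by the same edgeR test).

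Mavs, the shared adaptor of the sensors, was higher after SN-011 in heart and muscle and lower in stomach in mean, and did not pass the adjusted threshold in any tissue. Heart controls measured 41.4, 42.1 and 36.9 CPM and heart SN-011 samples 57.0, 49.8 and 45.7 CPM. Muscle controls measured 36.4, 38.3 and 40.1 CPM and muscle SN-011 samples 55.8, 49.3 and 55.5 CPM. In these tissues every SN-011 sample lay above every control, as did 14.1% of all tested genes in heart and 14.7% in muscle. Stomach controls measured 41.4, 50.4 and 44.0 CPM and stomach SN-011 samples 29.0, 39.8 and 34.1 CPM. Tongue controls measured 29.4, 44.3 and 47.7 CPM and tongue SN-011 samples 38.6, 40.8 and 35.9 CPM. Stomach SN-011 samples thus lay below the controls, and the tongue groups overlapped. The log2 fold change was 0.34 in heart (SE 0.12, edgeR adjusted p = 0.154, range over the alternatives 0.138 to 0.848), 0.48 in muscle (SE 0.12, adjusted p = 0.178, range 0.0215 to 1.00), -0.40 in stomach (SE 0.22, adjusted p = 0.296, range 0.123 to 0.651) and -0.07 in tongue (SE 0.20, adjusted p = 0.890, range 0.221 to 1.00). With library size alone as the scaling, the log2 fold change of Mavs stayed above 0 in heart and muscle and turned to 0.02 in tongue.

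**Figure D3:**
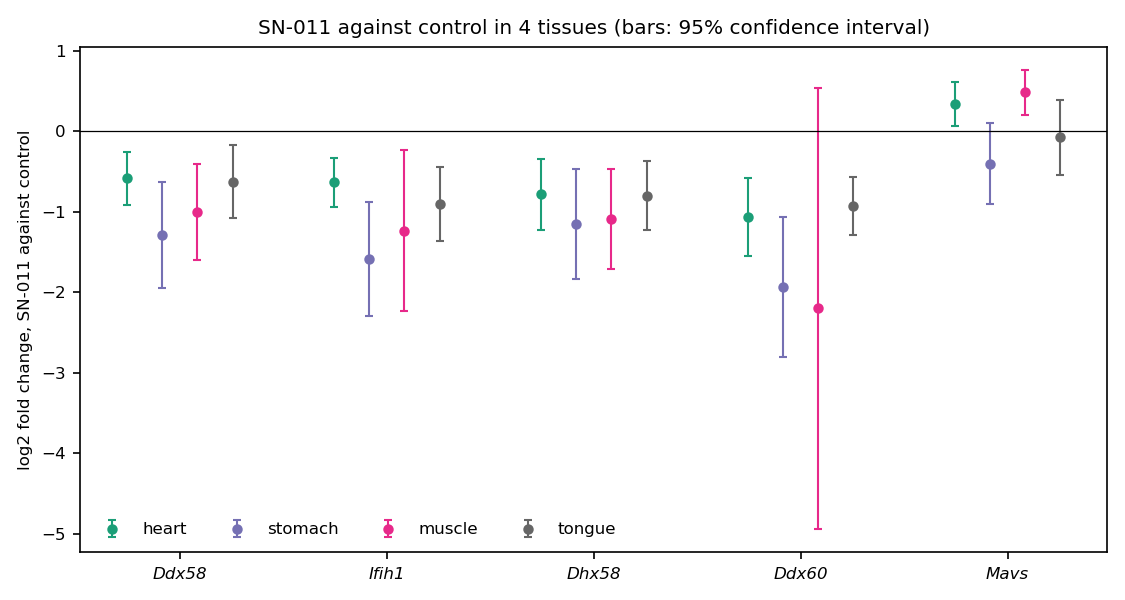
Log2 fold change of SN-011 against control for each gene in each tissue from edgeR. Points are estimates from 3 against 3 samples, bars are 95% confidence intervals and colours are tissues. The 16 estimates for the 4 sensor genes lie below 0, from -0.58 to -2.20, and those for Mavs lie between -0.40 and 0.48.

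Single libraries decided how many of these genes passed in muscle, tongue and heart. Without muscle SN-011 sample 2, Ifih1 (log2 fold change -0.87, edgeR adjusted p = 0.0198), Dhx58 (-1.03, adjusted p = 0.0382) and Ddx60 were called lower and Mavs was called higher (0.54, adjusted p = 0.0340), while Ddx58 stayed at -0.996 with an adjusted p of 0.0546, and 7.4% of all tested genes were called in that fit. Without tongue control sample 1, the lowest control for all 5 genes, Ddx58, Ifih1, Dhx58 and Ddx60 were all called lower in tongue, with log2 fold changes of -0.76, -1.09, -0.95 and -1.06 and edgeR adjusted p-values of 0.0240, 0.00201, 0.00663 and 0.00260. That fit called 12.5% of all tested genes, and the 2 controls it kept held 1827 and 1654 CPM of summed stomach markers. In heart, 2 members were called without control sample 2 and 1 without control sample 1, in fits that called 4.74% and 1.1% of all tested genes. In stomach no member was called whichever sample was left out.

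RNA of other cell types was measured beside the members. The summed level of 19 leukocyte markers was 1048 to 1883 CPM in heart controls and 1106 to 1419 CPM with SN-011, 405 to 792 and 282 to 952 CPM in stomach, 293 to 321 and 253 to 409 CPM in muscle, and 703 to 1017 and 639 to 766 CPM in tongue. These sums overlapped between groups in every tissue, and Lyz2, a lysozyme of macrophages and other myeloid cells, made up 45.6% to 72.2% of their group means. Gene by gene, the leukocyte markers had median log2 fold changes of -0.51 in heart, -0.03 in stomach, 0.08 in muscle and -0.59 in tongue. In heart 15 of 18 tested markers were negative, with unadjusted p-values under 0.05 for 5 lower and 0 higher, and in tongue 12 of 15 were negative, likewise with 5 lower and 0 higher. Ptprc, the CD45 antigen of all leukocytes, stood at -0.71 in heart and -0.59 in tongue (edgeR adjusted p = 0.148 and 0.380). Siglech, of plasmacytoid dendritic cells, stood at -2.41 and -2.001 (edgeR adjusted p = 0.0897 and 0.281), near the floor in tongue at 1.36 CPM in controls and 0.334 with SN-011. Other markers did not fall: Itgam stood at 0.49 in heart, with every SN-011 sample above every control, and at 0.29 in tongue (edgeR adjusted p = 0.407 and 0.716). Lyz2 stood at 0.01 and 0.12. These genes were named after their values were seen. In stomach 2 markers were lower and 2 higher at an unadjusted p under 0.05, and in muscle 1 and 1. Of the leukocyte markers, 1 had no counts in some heart samples, up to 2 in stomach, up to 8 in muscle and up to 4 in tongue. The 10 stomach markers summed to 15.5, 1399 and 149 CPM in heart controls against 5.17 to 45.1 CPM with SN-011, to 35.7, 473 and 207 CPM in muscle controls against 6.69 to 23.5 CPM, and to 49.7, 1827 and 1654 CPM in tongue controls against 12.6 to 30.5 CPM. Of these 10 markers, up to 3 had no counts in a heart sample, up to 8 in a muscle sample and up to 2 in a tongue sample. Control sample 1, which had the least of this RNA among the controls of these tissues and was also the sample with Xist counts, lay above every SN-011 sample for Ddx58, Ifih1, Dhx58 and Ddx60 in heart and muscle and for Ifih1, Dhx58 and Ddx60 in tongue. With control samples 2 and 3 left out, an analysis chosen after seeing the data that sets 1 control sample against 3 SN-011 samples and takes the spread from the latter alone, the log2 fold changes of Ddx58, Ifih1, Dhx58 and Ddx60 were -0.42, -0.66, -0.76 and -0.63 in heart, -0.62, -1.20, -1.26 and -2.17 in muscle and -0.28, -0.40, -0.44 and -0.64 in tongue. Ddx58, Ifih1 and Dhx58 in tongue, Ddx60 in heart and Ddx58 in muscle were then nearer to 0 by over 1.5 times. In stomach itself, the stomach markers summed to 31505 to 107448 CPM in controls and 8921 to 45604 CPM with SN-011, and the 10 epithelial markers of tongue, which squamous forestomach shares, to 143 to 383 CPM and 540 to 1541 CPM. The summed level of the 6 adipocyte markers was higher in every SN-011 sample than in every control in heart and in stomach. It was 683 to 835 CPM in heart controls and 1085 to 1219 CPM with SN-011, and 61.3 to 197 and 202 to 279 CPM in stomach. Of 5 tested adipocyte markers, however, 4 had negative log2 fold changes in heart (median -0.71) and 1 in stomach (median 0.78). The sum of the 8 skeletal muscle markers in muscle was also higher in every SN-011 sample, at 132927 to 147337 CPM in controls and 160809 to 188626 CPM with SN-011. The sum of the tongue epithelial markers in muscle was lower, at 7.07 to 10.4 and 4.98 to 5.16 CPM. The part of these differences in the members' values was not tested.

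Control samples of the 4 tissues differed in their levels. On the RPKM scale, which divides CPM by exon length in kilobases, with TMM normalization over all 24 samples, Ddx58 was at 15.04 ± 2.47 in heart, 14.3 ± 2.69 in stomach, 11.5 ± 2.23 in tongue and 4.18 ± 0.982 in muscle (SD, n = 3). The muscle level lay 1.46 to 1.85 log2 units below the others, with edgeR adjusted p-values of 5.01e-06 against heart, 3.32e-06 against stomach and 5.27e-05 against tongue, and heart, stomach and tongue did not differ beyond their spread. Ifih1 followed the same pattern, at 12.8 ± 0.907 in stomach, 11.7 ± 1.47 in heart, 10.8 ± 2.81 in tongue and 5.43 ± 0.396 RPKM in muscle. Its muscle level differed from stomach (adjusted p = 0.00359), heart (0.0123) and tongue (0.0202) by edgeR, and the other neighbours did not pass. The call of muscle against heart was lost without the 4 control samples numbered 1, which held Xist (edgeR adjusted p = 0.0769).

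Dhx58 had the highest level per length of the 5 genes in heart, stomach and tongue controls. It was at 28.5 ± 6.02 RPKM in tongue and 27.6 ± 2.22 in stomach, which did not differ beyond their spread, at 17.4 ± 2.98 in heart and at 6.04 ± 0.604 in muscle. Heart was below stomach by 0.66 log2 units (edgeR adjusted p = 0.0354) and below tongue by 0.71 (adjusted p = 0.0357), and muscle was below all others by 1.53 to 2.24. Both calls on heart were lost without heart control sample 1 or 2, that against stomach also without stomach control sample 1 or 2 (edgeR adjusted p = 0.0551 to 0.144) and that against tongue also without tongue control sample 2 or 3 (0.0907 to 0.158). Against stomach and tongue, they were also lost with library size alone (edgeR adjusted p = 0.0572 and 0.0551) and with no filter on low counts (0.0660 and 0.0572). Ddx60 was spread most, at 19.6 ± 2.16 RPKM in stomach, 11.9 ± 2.75 in heart, 7.54 ± 1.29 in tongue and 2.51 ± 0.690 in muscle. Muscle was below stomach by 2.97, below heart by 2.24 and below tongue by 1.59 log2 units, with edgeR adjusted p-values of 0.000228, 0.00412 and 0.0277. No other pair of tissues passed for Ddx60, with stomach against tongue closest (edgeR adjusted p = 0.0517). The calls of muscle against tongue for Ifih1 and Ddx60 were lost without muscle control sample 1 or 2 or tongue control sample 2 or 3, at edgeR adjusted p-values of 0.0606 to 0.0770 for Ifih1 and 0.0620 to 0.106 for Ddx60. Without the 4 control samples numbered 1, Dhx58 lost its calls of heart against stomach and tongue (edgeR adjusted p = 0.107 and 0.0555). Ddx60 then also lost its call of muscle against tongue (edgeR adjusted p = 0.0788).

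Mavs ran the other way, at 18.9 ± 1.31 RPKM in muscle, 11.3 ± 1.15 in stomach, 10.8 ± 0.743 in heart and 10.2 ± 2.55 in tongue. It was 0.81 log2 units higher in muscle than in heart, 0.74 higher than in stomach and 0.88 higher than in tongue (edgeR adjusted p = 0.00194, 0.00221 and 0.000737), but with library size alone the difference from heart and stomach turned to 0.03 and 0.05 in the other direction and that from tongue shrank to 0.09. In all, 17 of 30 contrasts of control levels passed. The share of all 19731 genes that passed was 33.7% for muscle against heart, 51.6% for muscle against stomach and 38.1% for muscle against tongue, and 42.5% for stomach against heart, 36.9% for stomach against tongue and 29.1% for tongue against heart. Against these shares, all 5 members passed in each of the 3 contrasts with muscle, 1 in heart against stomach, 1 in heart against tongue and 0 in stomach against tongue.

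**Figure D4:**
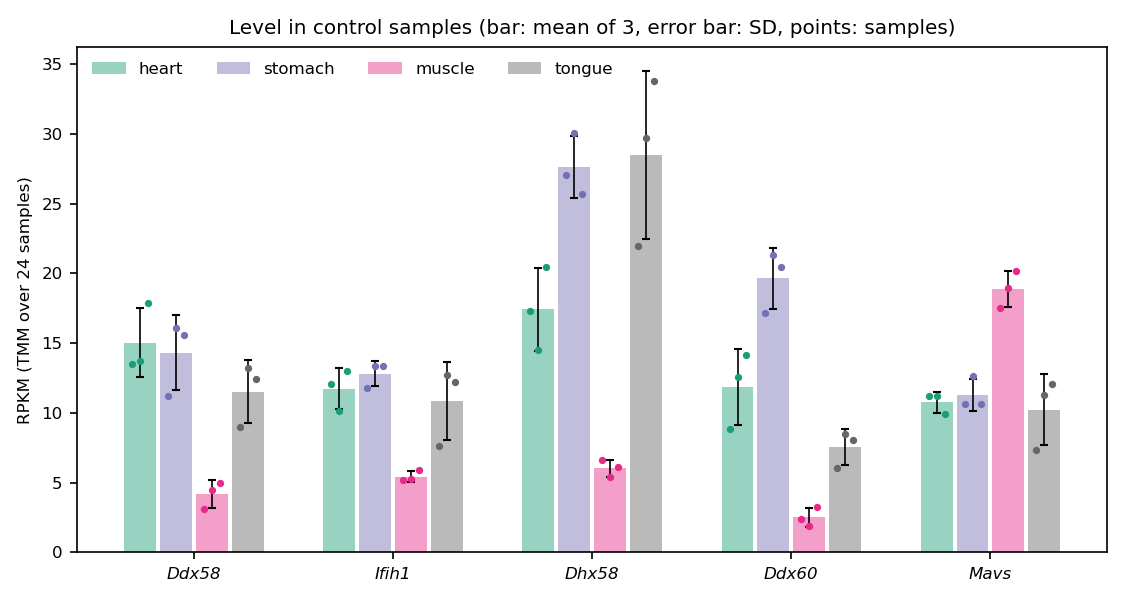
Level of each gene in control samples of the 4 tissues. The vertical axis is RPKM with TMM normalization over all 24 samples, bars are means of 3 samples, error bars are SD and points are samples. Muscle is lowest for Ddx58, Ifih1, Dhx58 and Ddx60, at 2.51 to 6.04 RPKM, and highest for Mavs, at 18.9 RPKM.

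The ratio of each sensor to Mavs within a library does not depend on how libraries are scaled to each other. Computed from reads per kilobase, it was lower in every SN-011 sample than in every control sample of the same tissue for all 16 pairs of sensor and tissue. The share of all genes whose ratio to Mavs separates the groups in the same way was not computed. The count of 16 therefore cannot be read as particular to the sensors. Each single pair reached an exact two-sided permutation p of 0.1, the smallest that 3 against 3 samples allow, and the value adjusted by Benjamini-Hochberg over the 16 pairs was also 0.1. In stomach, Ifih1 stood at 1.14 ± 0.103 of Mavs in controls and 0.493 ± 0.126 with SN-011 (SD, n = 3), and Ddx60 at 1.74 ± 0.161 and 0.592 ± 0.247. In heart, Ddx58 stood at 1.41 ± 0.340 and 0.745 ± 0.145, and Dhx58 at 1.64 ± 0.393 and 0.762 ± 0.282. Since Mavs itself was higher with SN-011 in heart and muscle, these ratios were lower there by more than the sensors' own levels. In tongue, where Mavs overlapped between groups, Ifih1 stood at 1.06 ± 0.0587 and 0.598 ± 0.0341 and Dhx58 at 2.81 ± 0.184 and 1.69 ± 0.227. Tongue Ddx58, whose own levels overlapped, stood at 1.03 to 1.23 in controls and 0.647 to 1.01 with SN-011. In muscle the ratios were lower than in the other tissues from the start, with Ddx58 at 0.220 ± 0.0382 in controls and 0.0790 ± 0.0136 with SN-011. Muscle Ifih1 stood at 0.288 ± 0.00939 and 0.0852 ± 0.0398, and muscle Ddx60 at 0.132 ± 0.0309 in controls and 0, 0.0251 and 0.0338 in the SN-011 samples.

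**Figure D5:**
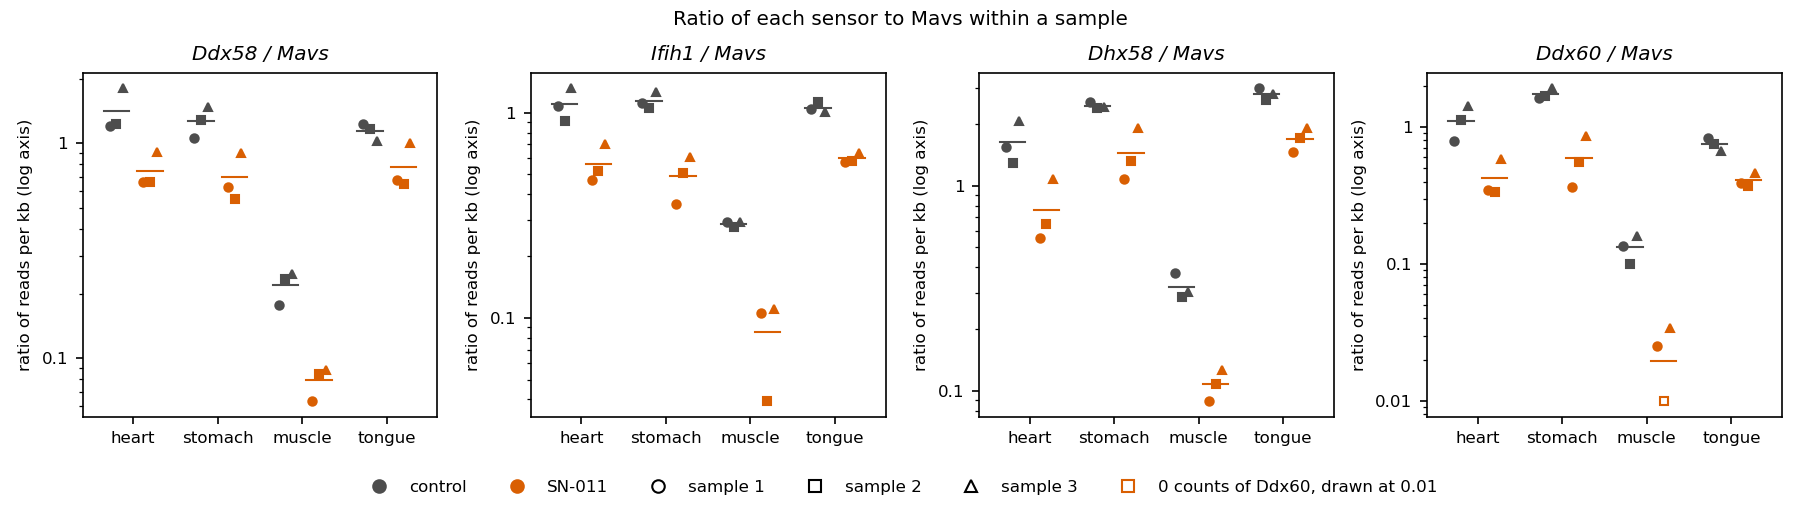
Ratio of each sensor to Mavs in reads per kilobase within every sample. Axes are logarithmic, grey marks are controls, orange marks are SN-011 samples, shapes give the sample number, short lines are means of 3 samples and the open square stands for 0 counts of Ddx60. Orange marks lie below grey marks in all 16 comparisons, and muscle controls lie at 0.132 to 0.322 where the other tissues' controls lie at 0.749 to 2.81 in mean.

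Whether the SN-011 effect differed between tissues was tested as the difference of log2 fold changes in the joint fit. None of 30 member contrasts passed the adjusted threshold by edgeR, and 5 had an unadjusted p under 0.05. The share of all genes that passed was 2.01% when stomach was set against heart, 6.95% when it was set against muscle and 0.821% when it was set against tongue, and 0.00507%, 0% and 0.0355% for muscle with heart, heart with tongue and muscle with tongue. Among the sensors, the fold change of Ddx58 was 0.72 log2 units nearer to 0 in heart than in stomach (95% interval 0.04 to 1.40, edgeR adjusted p = 0.266), that of Ifih1 0.97 nearer (0.02 to 1.93, adjusted p = 0.283), and that of Ddx58 0.69 lower in stomach than in tongue (-1.37 to -0.0036, adjusted p = 0.322). Dhx58 had differences between tissues from -0.39 to 0.39, with 95% intervals that reached from -1.11 to 1.12, so a difference of 1 log2 unit lies within the intervals.

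Other genes of the pathway were described from 8 lists, with 125 entries, and no listed gene outside the members passed the adjusted threshold in any tissue in the edgeR quasi-likelihood fits. Unadjusted p-values were under 0.05 for 19 lower and 7 higher entries in heart, 22 and 7 in stomach, 7 and 8 in muscle and 14 and 5 in tongue, counting 2 genes that stand in 2 lists in each. The entries tested numbered 103, 102, 102 and 101 in that order. Among all tested genes, the same threshold gave 1878 lower and 1737 higher of 16151 in heart and 1942 and 2241 of 17031 in stomach. It gave 823 and 1272 of 14198 in muscle and 1216 and 858 of 16587 in tongue. DESeq2 called 10 of 101 listed genes tested in heart, 16 of 100 in stomach, 2 of 100 in muscle and 4 of 99 in tongue, beside 8.43%, 14%, 6.2% and 2.52% of all genes, so the shares of the lists were near those of all genes or, in muscle, under them. The median log2 fold change over all tested genes was -0.01 in heart, 0.00 in stomach, -0.08 in muscle and -0.01 in tongue, against which the lists' medians are given below.

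Cofactors that activate the sensors had medians near those of all genes except in stomach, at 0.03 in heart, -0.29 in stomach, -0.17 in muscle and -0.03 in tongue over 13 genes. Trim25, a ubiquitin ligase that acts on RIG-I, measured 329 ± 42.3 CPM in stomach controls and 195 ± 48.8 with SN-011 (log2 fold change -0.75, edgeR adjusted p = 0.179), and 154 ± 8.40 and 158 ± 17.6 CPM in heart (0.04, adjusted p = 0.878). Rnf135, the ligase Riplet, had log2 fold changes of -0.18 in heart, -0.63 in stomach, -1.17 in muscle and 0.14 in tongue. Genes of MAVS signalling had medians of -0.08, -0.16, -0.38 and -0.12 over 18 genes. Traf3, a ubiquitin ligase recruited by MAVS, stood at 46.8 ± 4.69 CPM in heart controls and 32.4 ± 2.89 with SN-011 (-0.53, edgeR adjusted p = 0.0781). Tbk1, the kinase of IRF3, had log2 fold changes of -0.17, -0.15, 0.56 and -0.12 in heart, stomach, muscle and tongue.

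Transcription factors of the pathway had medians of -0.23 in heart, 0.05 in stomach, -0.05 in muscle and -0.27 in tongue over 10 genes. Irf3, present before infection in most cells, had log2 fold changes of 0.29, 0.68, 0.20 and 0.42 in heart, stomach, muscle and tongue, opposite in sign to those of the sensors. Irf7, which interferon induces as it does the sensors, measured 1302 ± 68.1 CPM in heart controls and 1301 ± 225 with SN-011 (0.00, edgeR adjusted p = 0.998). Its log2 fold change was -0.68 in stomach, -0.58 in muscle and -0.42 in tongue, with adjusted p-values of 0.249, 0.266 and 0.359 by the same test. Inhibitors of the sensors had medians of 0.09, -0.29, -0.11 and -0.13 over 19 genes (18 in tongue). Nlrx1, a mitochondrial NLR protein that binds MAVS, had log2 fold changes from -0.20 to 0.16. Rnf125, a ligase that marks RIG-I for degradation, was tested in heart and muscle alone, at 0.12 and -0.28.

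Genes that edit, degrade or sense endogenous double-stranded RNA had medians of -0.15, -0.06, -0.18 and -0.09 over 10 genes. Adar, which edits adenosine in RNA duplexes and thereby hides them from MDA5, measured 90.5 ± 13.7 CPM in heart controls and 64.1 ± 11.5 with SN-011 (-0.50, edgeR adjusted p = 0.127), and had log2 fold changes of -0.02 in stomach, -0.79 in muscle and -0.39 in tongue. Pnpt1, a mitochondrial exoribonuclease, had log2 fold changes of -0.41, -0.53, -0.85 and -0.43 in heart, stomach, muscle and tongue. Endosomal sensors had medians of -0.24, -0.22, -0.32 and -0.06 over 8 genes (7 in tongue). Tlr3, the endosomal receptor of double-stranded RNA, had every SN-011 sample below every control in all 4 tissues, with log2 fold changes of -0.56, -1.12, -1.31 and -0.97 and edgeR adjusted p-values of 0.0924, 0.0674, 0.680 and 0.263. Tlr7, the endosomal receptor of single-stranded RNA, had -0.22, -0.34, 0.15 and 0.50, with overlapping groups throughout.

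Other helicases of the DExD/H-box family had medians of 0.01, -0.15, 0.02 and 0.02 over 24 genes. Dhx9, an RNA helicase of the nucleus, had log2 fold changes of -0.42, -0.40, -0.95 and -0.19 in heart, stomach, muscle and tongue, and Ddx3x had -0.33, -0.64, -0.50 and -0.44. The sensor helicases, at -0.58 to -2.20, lay below the median of this list in each tissue. Interferon genes, which include the type I products of the pathway, were near the counting floor. Of 21 listed, only 1 in heart and 1 in tongue had enough counts to be tested. Ifnb1 had 25 counts over the 6 heart samples, 3 in stomach, 1 in muscle and 21 in tongue, and Ifna1 had 1 count in all 24 samples together. The gene tested in heart, named after its values were seen, was Ifng, type II interferon of T and NK cells, at 2.53 ± 1.25 CPM in heart controls and 0.623 ± 0.405 with SN-011 (log2 fold change -2.01, edgeR adjusted p = 0.107). The gene tested in tongue had a log2 fold change of -1.05, and its unadjusted p by edgeR was not under 0.05.

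The genes most like each member were found from log2 CPM as deviations from the group mean over 24 samples, among 12280 genes with a mean of at least 5 CPM. The points share libraries, and samples of one number in a tissue set may share a mouse, so the values are descriptions. Ddx60 was closest to Mx2 (Pearson r = 0.985, Spearman rho = 0.861), Oas1g (0.984, 0.898) and Oas1a (0.980, 0.802), interferon-induced antiviral genes. With the 2 samples farthest from the median left out, these r fell to 0.930, 0.920 and 0.906. Ifih1 was closest to Mapkapk3 (r = 0.956, rho = 0.863), Slfn4 (0.954, 0.872) and Tdrd7 (0.952, 0.819). Ddx58 was closest to Ifi44 (0.875, 0.844), Oas1b (0.843, 0.822) and Rnf213 (0.843, 0.858), and Dhx58 to Oas3 (0.840, 0.858), Trim25 (0.827, 0.810) and Bst2 (0.821, 0.777). The nearest genes of Mavs were Chp1 (r = 0.934, rho = 0.892), Zfp706 (0.924, 0.892) and Map2k4 (0.917, 0.902), none of them a listed gene of the pathway. Among the members, Ddx60 and Ifih1 were nearest to each other (r = 0.917, rho = 0.852), and r was 0.846 without muscle SN-011 sample 2, in which both were lowest. The r of Mavs with the other members ranged from 0.385 for Ddx58, 0.406 for Dhx58 and 0.502 for Ddx60 to 0.683 for Ifih1.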

How the data were processed

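RNA-Seq of heart, stomach, muscle and tongue of Trex1-KO mice was used, with 3 control and 3 SN-011 samples per tissue, grouped by their labels. The authors deposited raw read counts per gene for 54532 Ensembl genes per sample, with no normalization. Per the submitters' processing notes, HISAT2 and HTSeq were used with the mm10 build, while the study's methods name Trimmomatic, hisat2 and featureCounts on uniquely mapped pairs, without versions, and a strand-specific poly(A) library. Of the identifiers, 54495 matched GENCODE M21 (GRCm38), which gave symbols and exon lengths.

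SN-011 was compared with control tissue by tissue. Genes were kept by filterByExpr of edgeR 4.0.16 in R 4.3.3 (count of 10, total of 15), scaled by TMM, fitted by quasi-likelihood (prior count 0.125), adjusted by Benjamini-Hochberg over the genes tested and called at 0.05. A joint fit of 24 samples over 19731 genes gave levels between tissues and differences of effects. Total counts of 14253416 to 18443329 put 3 counts at 0.163 to 0.210 CPM. The members and gene lists were chosen with earlier results of these data known. Named genes are the members, the first 2 of each list, listed genes past the threshold and the 3 genes most like each member. On simulated counts, 46 of 100 genes changed 2-fold and 86 of 100 changed 4-fold were recovered in heart, 2 and 44 in stomach, 3 and 38 in muscle and 14 and 70 in tongue. Same-numbered control and SN-011 samples did not deviate together (mean correlation -0.00 in heart, 0.07 in stomach, 0.01 in muscle and -0.23 in tongue), so numbers were not taken to pair samples. Alternatives were DESeq2 1.42.0 and its size factors, library size alone, other filters on low counts, edgeR's exact test, a prior count of 2, the joint fit, the 10 genes with most counts left out, a replicate block and leaving out each sample. The joint fit was also run without the 4 control samples numbered 1. Python 3.11.15 and scipy 1.17.1 served for ratios, promoter searches and figures.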

Additional observations from a re-analysis of the deposited data

Results flagged for a closer look

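The mean level of Mavs was lower with SN-011 in stomach and higher in heart and muscle. Every stomach SN-011 sample lay below every stomach control, and every heart and muscle SN-011 sample lay above every control of its tissue. The same separation held for 15.2% of all tested genes in stomach, 14.1% in heart and 14.7% in muscle. The lower level in stomach (log2 fold change -0.40) had an unadjusted p of 0.107 by edgeR quasi-likelihood, so its direction is uncertain. The unadjusted p by the same test was 0.0208 in heart and 0.00497 in muscle. The difference of the log2 fold changes was 0.77 for heart minus stomach (SE 0.26, edgeR quasi-likelihood unadjusted p = 0.00808, adjusted p = 0.129, range over the alternatives 0.0594 to 0.374) and -0.84 for stomach minus muscle (SE 0.26, unadjusted p = 0.00444, adjusted p = 0.0568, range 0.0237 to 0.208). Neither passed the adjusted threshold, which 2.01% and 6.95% of all genes passed in these 2 contrasts. Both kept their direction in each of 30 alternative fits. The fits reuse the same libraries, and the contrasts were flagged because their groups separate in opposite directions, so the kept direction is not further support.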

How the results depend on the processing

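With 3 samples a group and no member past the adjusted threshold in the reported analysis, calls depended on the analysis while directions of the sensors did not. Log2 fold changes of Ddx58, Ifih1, Dhx58 and Ddx60 stayed below 0 in all 267 alternative fits. These fits reuse the same libraries, and the groups did not overlap in 15 of 16 comparisons. The unchanged signs are therefore not further support for the direction. Leaving out a sample could not reverse any of the 16 ratios to Mavs, because their groups did not overlap. Members called in heart (0 as reported) were 2 with library size alone, 4 without a filter, 2 with at least 10 counts in every sample, 4 by DESeq2, 4 by the exact test and 0 to 2 leaving out each sample. In stomach 4 were called without a filter, in the joint fit, by DESeq2 and by the exact test. Muscle gave 3 in the joint fit, 3 by DESeq2 (2 sensors lower and Mavs higher), and 0 to 4 leaving out each sample. Tongue gave 3 by DESeq2, 2 by the exact test and 0 to 4 leaving out each sample. With the replicate number as a block, which does not pair these samples, 3 members were called in heart, 1 in stomach and 1 listed gene in all tissues. Listed genes called (0 as reported) were 32 by DESeq2, 18 by the exact test, 25 in the joint fit, 1 with library size alone, 18 without a filter and 0 to 12 leaving out each sample. Differences between tissues (0 called) gave 1 with DESeq2's size factors, 1 with at least 10 counts in every sample and 0 to 1 leaving out each sample. In the pair of tissues with most calls, the share of all genes called reached 8.27%, 18.5% and 11.9% in these fits, in that order. The cause of these changes in calls was not tested. The share of all tested genes called moved as well: in heart it was 1.54% with library size alone, 6.23% without a filter and 1.84% with at least 10 counts, in stomach 4.98% without a filter and 13.9% in the joint fit, in muscle 2.4% in the joint fit, and with the block 1.5% in heart and 1.06% in stomach. The log2 fold change of Mavs in tongue changed sign to 0.0170 with library size alone and 0.39 with control samples 2 and 3 left out, which leaves 1 control, and ran from -0.26 to 0.0576 leaving out each sample. Its control level in muscle fell below that in heart and stomach with library size alone, at differences of 0.0264 and 0.0532. That scaling moved the median log2 fold change of all genes to -0.16 in heart, 0.18 in stomach and -0.31 in muscle. Of the 17 control levels called, 480 of 507 alternative fits passed. Without the 4 control samples numbered 1, 13 control levels were called, in a fit where 22.8% to 43.1% of all genes passed, depending on the pair of tissues. Ddx60 in muscle could not be fitted with at least 10 counts in every sample. Depth was not limiting for the members outside Ddx60 in muscle. Its 0 counts fell in SN-011 sample 2, a library with few detected genes but 14253416 counts, so depth alone does not describe that value. Interferon genes were at the floor.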
